A study of Mus musculus with 12 samples.

Results

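The comparison described here set 3 RNA-seq libraries of colonic organoids labelled AhR deficient (KO) against 3 wild-type (WT) libraries, all kept in medium that contained Wnt-3A. Its members were the genes whose normalized count reached 10 in at least 3 of these 6 libraries, which held for 13925 of the 48795 genes in the table. The organoids were grown from mouse colon crypts in Matrigel, and the strain of both genotypes is C57BL/6. The medium (WENR) supplied Wnt-3A beside EGF, Noggin and R-spondin-1, and the other 6 of the 12 libraries of the series came from organoids of both genotypes kept without Wnt-3A for 3 days (ENR). The titles write the KO genotype as AhR-/- without naming the construct, and the labels give neither the age nor the number of mice. They also do not say whether replicate libraries stem from separate mice or cultures, so p-values cover the spread between these libraries alone, which may be technical. The main fit took this spread from all 12 libraries together, so p-values and standard errors of the stem comparison also rest on the differentiated libraries.

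AhR (aryl hydrocarbon receptor) is a transcription factor that binds small molecules from diet, microbes or pollutants, pairs with ARNT and induces genes of xenobiotic metabolism such as cytochrome P450 and glucuronosyltransferase genes. In the colon, Wnt ligands keep crypt base cells dividing, and their withdrawal lets the cells mature into absorptive colonocytes and goblet cells. Organoids kept in Wnt-3A are enriched in stem and progenitor cells but are a mixture, and in bulk RNA fewer cells of a type and less RNA per cell cannot be told apart.

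The stem libraries held between 33062589 and 99023592 reads assigned to genes. The first principal component of their log2 values (41.6% of the variance) separated KO from WT, and the next (33.1%) set WT library 1 apart from the other 5 libraries. Epithelial markers such as Krt8, a keratin of simple epithelia, were high in all 6 libraries. Krt8 had 248909, 252163 and 266313 in WT and 231156, 216021 and 187139 in KO. On a list of 12 epithelial genes, 11 had a log2 change below 0 in KO (median -0.27). By limma, 4 were lower at an adjusted p under 0.05 and 0 higher, against 3.33% of all genes tested that were lower. The falls numbered 1 without WT library 2, KO library 1 or KO library 2, and 6 by DESeq2. Of 34 fibroblast and muscle genes, the other 32 beside Fn1 and Timp2 summed to 26157 in WT library 1, 842 in KO library 3 and 159 to 214 in the remaining 4 libraries. Of these, 26 reached 10 in WT library 1 and Lum was at 0 in all 6 libraries. The mesenchymal filament gene Vim stood at 13196, 9.97 and 8.08 in WT and 37.2, 16.1 and 356 in KO. Endothelial, blood and nerve genes summed to 954 in WT library 1 and 195 to 247 elsewhere, and the leukocyte marker Ptprc did not exceed 3.26. Summed immune genes, led by Cd68, Cd14 and Csf1r, ran from 2560 to 4118 in WT and from 5169 to 5634 in KO, with 7 of 20 at 0 in all 6 libraries. The part of such transcripts in the results was not tested beyond leaving out WT library 1.

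Ahr itself did not drop in the libraries labelled KO. Normalized counts were 1762, 1746 and 1909 in WT and 2503, 2831 and 2690.3 in KO, so all KO libraries lay above all WT libraries. The ratio of the means was 1.48, and the limma log2 change was 0.57 ± 0.08 (SE, adjusted p = 0.00201 after Benjamini-Hochberg adjustment over 13925 genes). An exact two-sided permutation test gave p = 0.1, the smallest value 3 against 3 libraries can reach. Whole-gene counts carry no information on which exons were transcribed, and the labels were kept as given.

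Promoter sequences are shown for 3 xenobiotic metabolism genes that fell and for Prkar2b, the most highly expressed of the 3 largest rises in KO. They are RefSeq windows of GRCm38.p6, from 250 bases before to 50 after the start of transcription, written 5′ to 3′ on the gene's own strand, and capitals mark the core letters bound by AhR with ARNT (GCGTG, or CACGC on the other strand). The windows lie at chr17:79715012-79715311 on the minus strand (Cyp1b1), chr1:88094751-88095050 on the plus strand (Ugt1a7c), chr8:107403156-107403455 on the minus strand (Nqo1) and chr12:32061228-32061527 on the minus strand (Prkar2b).
Cyp1b1: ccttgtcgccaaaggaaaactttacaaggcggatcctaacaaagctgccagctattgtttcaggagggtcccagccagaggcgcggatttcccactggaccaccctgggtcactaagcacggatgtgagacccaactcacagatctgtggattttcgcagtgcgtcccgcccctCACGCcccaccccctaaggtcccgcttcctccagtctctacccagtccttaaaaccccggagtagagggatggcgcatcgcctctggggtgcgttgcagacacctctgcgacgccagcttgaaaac
Ugt1a7c: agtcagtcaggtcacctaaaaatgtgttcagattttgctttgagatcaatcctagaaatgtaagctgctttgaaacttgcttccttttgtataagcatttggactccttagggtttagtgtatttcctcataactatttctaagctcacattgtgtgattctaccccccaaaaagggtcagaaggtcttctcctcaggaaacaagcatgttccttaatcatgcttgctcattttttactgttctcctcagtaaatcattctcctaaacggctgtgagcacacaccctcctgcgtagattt
Nqo1: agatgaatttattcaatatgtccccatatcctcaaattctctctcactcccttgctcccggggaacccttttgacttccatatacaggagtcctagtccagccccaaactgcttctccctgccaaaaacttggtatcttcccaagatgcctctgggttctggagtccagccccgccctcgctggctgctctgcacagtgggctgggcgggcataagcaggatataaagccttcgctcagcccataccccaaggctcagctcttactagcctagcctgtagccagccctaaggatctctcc
Prkar2b: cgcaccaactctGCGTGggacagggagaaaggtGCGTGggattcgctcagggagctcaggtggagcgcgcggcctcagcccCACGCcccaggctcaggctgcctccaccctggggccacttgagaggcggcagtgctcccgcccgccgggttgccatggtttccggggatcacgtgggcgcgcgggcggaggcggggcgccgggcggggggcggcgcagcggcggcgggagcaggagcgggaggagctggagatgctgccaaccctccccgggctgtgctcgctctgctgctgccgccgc
The core letters occurred 1 time in the window of Cyp1b1 and 3 times in that of Prkar2b, and 0 times in those of Ugt1a7c and Nqo1. They were present in 32.5% of all 27025 windows and in 52.0% of the 10297 windows of genes tested here. Among called genes with a window, 178 of 343 that fell (51.9%) and 171 of 389 that rose (44.0%) held them.

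In all, 981 of the 13925 genes (7.04%) differed between KO and WT in the stem condition, 517 higher (3.71%) and 464 lower (3.33%) in KO, by limma at an adjusted p under 0.05. The median rise among called genes was 0.76 and the median fall -0.50 on the log2 scale, against -0.04 for all genes tested. Changes over 2-fold were seen in 182 genes that rose and 138 that fell, and over 8-fold in 18 and 21. At an unadjusted p under 0.05 there were 3521 genes. The KO and WT libraries did not overlap in 30.5% of all genes and in each of the 981 called genes. Lack of overlap in a called gene, where given below, therefore adds nothing to its call. Of the 981, 331 (186 higher, 145 lower) kept the call when any 1 of the 6 libraries was left out. The count was 373 with the 6 stem libraries fitted alone. It was 495 without WT library 2, 375 without KO library 1 and 413 without KO library 2. The number of genes lower in KO was 704 without WT library 1. The share of called genes that were higher in KO was 52.7% here, 67.7% by edgeR and 43.3% by DESeq2 on the recovered reads, and 61.9% after quantile normalization. It was 48.3% without WT library 1 and 49.5% without that library and KO library 3.

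The steepest falls included the xenobiotic genes. Cyp1b1 (ENSMUSG00000024087, chr17:79701537-79715061 in GRCm38), a cytochrome P450 gene that AhR induces, stood at 8502, 7479 and 8452 in WT and 571, 408 and 269 in KO. All 3 KO libraries were far below all WT libraries, a 19.6-fold difference of the means (log2 -4.35 ± 0.23, adjusted p = 2.12e-06). Of 20 glucuronosyltransferase genes, whose enzymes make drugs, bilirubin and other compounds water-soluble, 5 were tested and 4 of these fell (median log2 -2.33). Ugt1a7c had 2483, 3556 and 3329.5 in WT and 156, 119 and 288 in KO (16.6-fold, log2 -4.13 ± 0.34, adjusted p = 6.33e-05). Ugt2b34, of another subfamily, had 7354, 10641 and 11375 in WT and 2447, 1954 and 2835 in KO (4.06-fold, log2 -2.01 ± 0.27, adjusted p = 0.00165). Neither gene showed an overlap between the genotypes. Ugt1a6a (log2 -4.72 ± 0.48) and Ugt1a1 (log2 -2.33 ± 0.50) were the other 2, and Ugt1a1 was not called without WT library 2, WT library 3, KO library 1 or KO library 2 (highest adjusted p = 0.0757). Genes of the Ugt1a locus share their last exons, so their separate counts are uncertain.

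On the list of 20 AhR pathway genes, 15 were tested, and 4 fell (5 without WT library 1) and 1 (Ahr) rose. Without WT library 2, KO library 1, KO library 2 or KO library 3, 3 fell, and edgeR called 3 lower. The quinone reductase Nqo1 had 1938, 1566 and 2047 in WT and 442, 522 and 546 in KO (3.68-fold, log2 -1.87 ± 0.20, adjusted p = 0.000316). The other falls were Cyp1b1, Ugt1a6a and the co-chaperone Ptges3, named after its values were seen (log2 -0.20 ± 0.05, adjusted p = 0.0342). Arnt, the receptor's partner, had 3031, 4030.2 and 4023 in WT and 3683, 4022 and 4035 in KO, which overlapped (log2 0.09 ± 0.10, adjusted p = 0.576). Tiparp, a further gene that AhR induces, had 1819.5, 4824 and 5317 in WT and 1860.0, 4256 and 3597 in KO, with the lowest value in WT library 1 (log2 -0.24 ± 0.40, adjusted p = 0.752, and -0.73 without that library, adjusted p = 0.161). Cyp1a1 and the repressor gene Ahrr did not reach the filter, with at most 8.08 and 9.78 in any stem library.

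Several further genes were close to 0 in KO. Rec8, a meiotic cohesin subunit, had 300.0, 317 and 364 in WT and 0, 0 and 3.05 in KO (adjusted p = 3.86e-05), or 785 reads against 3. Capn11, encoding a calpain protease, had 153, 106 and 43.9 in WT and no read in KO, at least 44.2-fold lower at a floor of 3 reads in each library (adjusted p = 0.000257). Trim9, a ubiquitin ligase, had 63.6, 75.3 and 122 in WT and 0, 0 and 1.02 in KO (adjusted p = 1.01e-05). All 3 genes kept their call without any 1 library. Cd55b, close in sequence to the complement inhibitor Cd55 and so of uncertain count, had a mean of 207 ± 54.8 in WT and 2.07 ± 0.613 in KO (SD, n = 3 each, limma adjusted p = 6.47e-07). Cd55 itself, a surface protein, went from 16745, 20642 and 22697 to 10408, 12867 and 10465 (1.78-fold, log2 -0.83 ± 0.11, adjusted p = 0.00172). Gpr37l1, an orphan receptor gene, had 181, 757 and 760.5 in WT and 5.39, 11.7 and 8.14 in KO. WT library 1 was the lowest WT library for Gpr37l1 (log2 -5.70 ± 0.47, and -6.39 without it). Wdfy1, an adaptor protein gene, had 2564, 3788 and 3661 in WT and 162, 201 and 205 in KO (17.6-fold, log2 -4.12 ± 0.14). Its adjusted p of 1.05e-07 was the lowest among the genes named here. Clca3b, of the calcium-activated chloride channel regulator family, had 9282, 11820.2 and 8024 in WT and 914, 1242 and 1359 in KO (8.29-fold, adjusted p = 2.62e-05).

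Genes of secreted defence proteins were found among the largest rises. Of 37 listed genes, 23 were tested, and 8 rose and 3 fell (median log2 0.65, and 0.77 without WT library 1, when 9 rose and 3 fell). Chit1, a chitinase, had 0, 1.11 and 0 in WT (1 read in all) and 73.3, 88.1 and 57.0 in KO (312 reads, adjusted p = 2.16e-05). Cp, the copper-carrying ferroxidase ceruloplasmin, had 1.63, 5.54 and 2.31 in WT and 166, 88.1 and 79.4 in KO (adjusted p = 0.000727). Defb1, an antimicrobial peptide of epithelia, had 6.52, 13.3 and 20.8 in WT and 201, 286 and 128 in KO (15.2-fold, log2 3.88 ± 0.45, adjusted p = 0.000613). None of the 3 genes overlapped between genotypes, which held for every called gene. Sftpd, a collectin that binds microbial sugars, had 159.8, 94.2 and 109.6 in WT and 2109, 1344 and 994 in KO (12.2-fold, log2 3.57 ± 0.33, adjusted p = 0.000138). The 3 that fell were Lypd8, which keeps flagellated bacteria off the colon surface, Ang4, an antimicrobial ribonuclease, and the lectin gene Itln1. Itln1 had 99.5, 191 and 80.8 in WT and 36.1, 21.3 and 39.7 in KO (log2 -1.85 ± 0.36, adjusted p = 0.0124) and was not called without KO library 2 (highest adjusted p = 0.0567). Ang4 (log2 -1.97 ± 0.50, adjusted p = 0.0384) was not called without WT library 1, WT library 2, KO library 1, KO library 2 or KO library 3. At least 8 rises remained called in number without any 1 library, whereas the falls numbered 1 without WT library 2 and 0 without KO library 2. Among complement genes, C3, the central complement component, rose from 165, 172 and 136 to 564, 352 and 412 (2.81-fold, adjusted p = 0.00251).

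**Figure D1:**
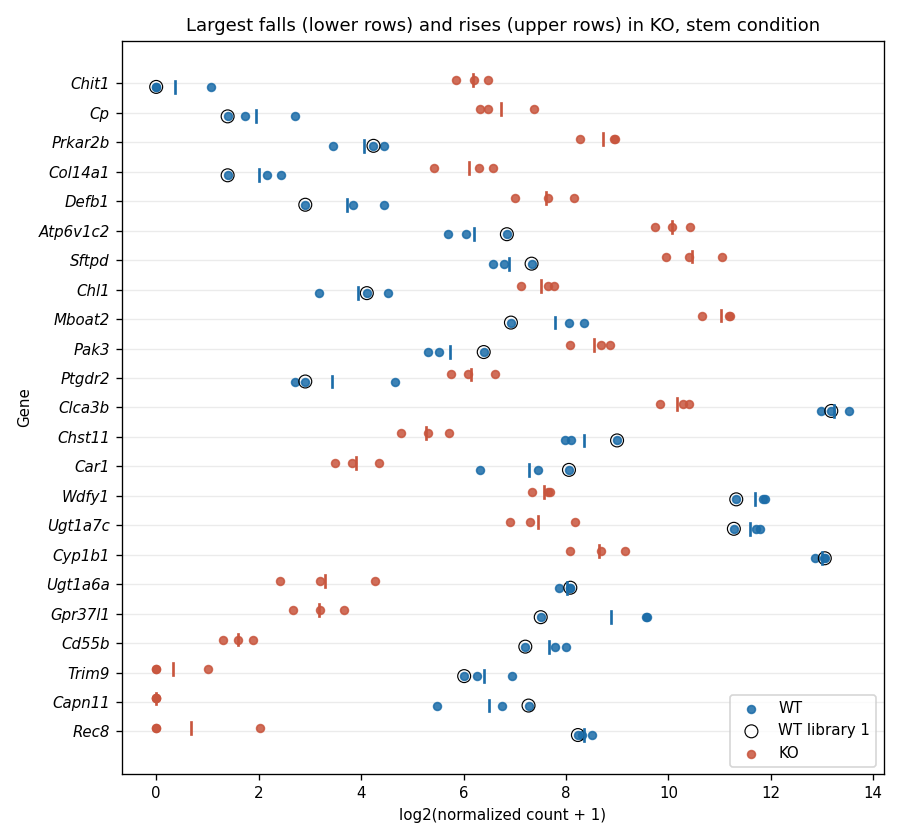
Normalized counts of the 12 largest falls (lower rows) and of 11 of the 12 largest rises (upper rows) in each stem library, as log2(normalized count + 1), WT in blue and KO in red. Vertical bars are means of the 3 log2 values and open circles mark WT library 1. Lack of overlap was required for selection, so in each row the 3 KO libraries lie on the same side of the 3 WT libraries.

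The other leading rises had varied functions. Prkar2b, a regulatory subunit of the cAMP-dependent kinase, had 17.9, 9.97 and 20.8 in WT and 307, 490.2 and 497 in KO (26.6-fold, log2 4.67 ± 0.36, adjusted p = 3.57e-05). Of 26 tested genes of that kinase pathway it was the 1 that rose, a share near the 3.71% of all genes called higher. Pde4b, a cAMP phosphodiesterase, fell 2.13-fold (log2 -1.09 ± 0.16, adjusted p = 0.00299). Creb1, the factor that the kinase phosphorylates, fell too, by a small amount (log2 -0.20 ± 0.05, adjusted p = 0.0439, not called without WT library 1, WT library 2, WT library 3, KO library 1 or KO library 2). Atp6v1c2, a subunit of the proton pump that acidifies vesicles, had 114, 65.4 and 50.8 in WT and 1366, 1077 and 857 in KO (14.3-fold, log2 3.88 ± 0.43, adjusted p = 0.000452). Mboat2, a lysophospholipid acyltransferase, had 121, 327 and 264 in WT and 1619, 2337 and 2371 in KO (8.89-fold, log2 3.24 ± 0.31, adjusted p = 0.000181). In Prkar2b, Atp6v1c2 and Mboat2 even the lowest KO library stood well above the highest WT library. Pak3, a kinase activated by small GTPases (6.85-fold), Chl1, a cell adhesion molecule (11.9-fold), and Ptgdr2, a prostaglandin D2 receptor (5.98-fold), were also among the 12. The collagen gene Col14a1 rose from 1.63, 4.43 and 3.46 to 77.6, 41.8 and 94.7 (adjusted p = 0.000751). KO library 3, which held more fibroblast transcripts than the other KO libraries, had the highest Col14a1 value, and all KO libraries lay above all WT libraries.

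Prkar2b, Mboat2 and Atp6v1c2 share chromosome 12 with Ahr, at 3.44, 10.5 and 18.2 Mb from it. Called genes were 4 of 34 tested within 5 Mb of Ahr (11.8%), 3 of 13 at 5 to 10 Mb (23.1%), 21 of 67 at 10 to 20 Mb (31.3%), 9 of 111 at 20 to 40 Mb (8.11%) and 21 of 258 farther away (8.14%). Chromosome 12 had 12.2% of its genes called, chromosome 1 10.2%, and each of the other chromosomes 4.91% to 8.67%. At 6.86 Mb, Rps7, a protein of the small ribosomal subunit, had 36474, 38449 and 40669 in WT and 15722, 17206 and 16195 in KO (2.35-fold, log2 -1.23 ± 0.05, adjusted p = 5.82e-07). Ribosomal protein genes have pseudogene copies that can share reads, so this count is uncertain. The part that this position had in these changes was not tested.

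Among abundant genes, ranked by mean normalized count per kilobase of exon, changes were mostly small. Lypd8 led the falls, from 46475 to 12243 per kilobase. Its normalized counts were 37089, 79177 and 62757 in WT and 17797, 13420.4 and 15942 in KO, WT library 1 being the lowest WT library (3.80-fold, log2 -1.87 ± 0.37, adjusted p = 0.0134, and -2.17 without it). Krt4, a keratin of stratified epithelia, rose from 9198 to 22263 per kilobase, with 21662, 16066 and 21132 in WT and 57771, 50467 and 34226 in KO (2.42-fold, log2 1.25 ± 0.19, adjusted p = 0.00322). Ephx1, which hydrolyses epoxides of foreign compounds, rose 1.66-fold (log2 0.73 ± 0.11, adjusted p = 0.00254). Ly6e, a lipid-anchored membrane protein and the most abundant rise per kilobase (31328 to 41275), changed 1.32-fold (log2 0.39 ± 0.08). Cd81, a tetraspanin, rose 1.36-fold, the annexin Anxa8 1.39-fold and the kinase gene Mknk2 1.42-fold. The falls included Epcam, an adhesion molecule of epithelia (1.34-fold, log2 -0.41 ± 0.11, adjusted p = 0.0475), the tight junction claudin Cldn7 (1.27-fold), Anp32b (1.25-fold) and Hint1 (1.24-fold). Lypd8 was not called without WT library 2 or KO library 2. Epcam was not called without WT library 2, WT library 3, KO library 1, KO library 2 or KO library 3, Cldn7 was not called without WT library 2, KO library 1 or KO library 2, and Anp32b was not called without WT library 2 or KO library 1. Hint1 was not called without KO library 1 or KO library 2, Ly6e was not called without WT library 2, KO library 1 or KO library 2, Cd81 was not called without WT library 2, WT library 3, KO library 1 or KO library 2, and Anxa8 was not called without WT library 2 or KO library 1.

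Genes of mature surface colonocytes were lower in KO although Wnt-3A was present. Of 25 tested, 12 fell and none rose (median log2 -1.30, against -0.04 for all genes), and 14 fell without WT library 1 (median -1.62). The count was 8 without WT library 2 and 7 without either KO library 1 or KO library 2. Car1, a colonic carbonic anhydrase, had 266, 78.7 and 175 in WT and 19.4, 10.3 and 13.2 in KO (12.1-fold, log2 -3.39 ± 0.46, adjusted p = 0.00164). Guca2a, encoding guanylin, a peptide that drives fluid secretion, had 62.0, 28.8 and 40.4 in WT and 3.23, 1.47 and 3.05 in KO (16.9-fold, log2 -3.61 ± 0.42, adjusted p = 0.000649). Slc9a3, the apical sodium-proton exchanger, had 35.9, 23.3 and 36.9 in WT and 4.31, 2.20 and 2.04 in KO (11.2-fold, adjusted p = 0.00114). In all 3 genes the lowest WT library exceeded the highest KO library. Dpep1, a brush border dipeptidase, fell 7.83-fold, Krt20, a keratin of mature colonocytes, 4.73-fold, and Tmigd1, a surface protein of enterocytes, 4.55-fold. Krt20 was not called without WT library 2 or KO library 1, and Tmigd1 was not called without WT library 3, KO library 1 or KO library 2 (highest adjusted p = 0.0805 and 0.11). The membrane mucin Muc3 had 558, 1261 and 1438 in WT and 91.6, 218 and 462 in KO, without overlap (log2 -2.25 ± 0.62, adjusted p = 0.0508), and was called without WT library 1 (log2 -2.67, adjusted p = 0.0304). Of 24 brush border genes, 1 rose and 2 fell, and 0 and 8 without WT library 1. Without WT library 3, KO library 1 or KO library 2, 1 fell. Myo1a, the microvillar motor, had 1019, 1146 and 959 in WT and 177, 187 and 272 in KO (4.92-fold, log2 -2.31 ± 0.28, adjusted p = 0.000925).

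Several transcription factors of intestinal identity fell. Of 24 tested, 5 fell and none rose (median log2 -0.13), against 6 falls without WT library 1, 3 without KO library 1, and 2 without WT library 2 or KO library 2. There was 1 rise without WT library 3 or KO library 3, and DESeq2 called 2 higher and 6 lower. Cdx1, a homeobox factor of the intestine, had 4320.4, 4841 and 3604 in WT and 612, 703 and 924 in KO (5.70-fold, log2 -2.52 ± 0.22, adjusted p = 0.000111). Its relative Cdx2 had 8396, 12701 and 10600.3 in WT and 8137, 8980.5 and 8885 in KO, so that WT library 1 lay among the KO values (log2 -0.27 ± 0.16, adjusted p = 0.308). Hnf4a, a nuclear receptor of enterocytes, fell 1.57-fold (log2 -0.65 ± 0.15, adjusted p = 0.0276), and was not called without WT library 2, WT library 3, KO library 1 or KO library 2. Of 25 nuclear receptors tested, 3 fell and none rose (by edgeR 2 fell and 1 rose, and by DESeq2 3 fell and 2 rose). Without WT library 1, 3 fell and 2 rose, and without WT library 2, WT library 3, KO library 1 or KO library 2, 2 fell and none rose. Nr1i2, the xenobiotic sensor PXR, had 39.1, 70.9 and 72.7 in WT and 13.5, 6.61 and 9.16 in KO (6.25-fold, log2 -2.52 ± 0.31, adjusted p = 0.000961). Nr1h4, the bile acid receptor FXR, fell 3.03-fold (log2 -1.64 ± 0.30, adjusted p = 0.00958). Nr5a2, known for roles in crypt cell renewal and steroid synthesis, fell 2.50-fold (adjusted p = 0.0392), and this call was lost without WT library 1 (adjusted p = 0.0645).

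**Figure D2:**
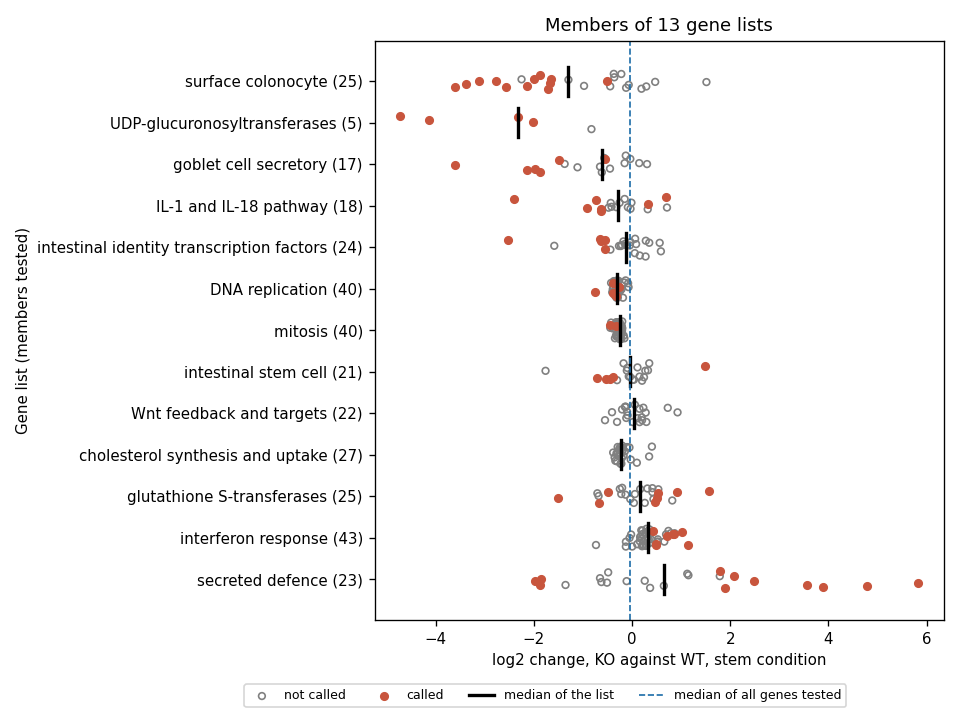
Log2 change of each tested member of 13 gene lists, KO against WT in the stem condition. Filled points passed the test, black bars are list medians and the dashed line is the median of all genes tested (-0.04). The medians run from -2.33 for glucuronosyltransferase genes and -1.30 for surface colonocyte genes to 0.65 for secreted defence genes.

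Among goblet cell genes, 6 of 17 fell and none rose (median log2 -0.62). This count was 5 without WT library 1, 3 without KO library 1, and 2 without WT library 2 or KO library 2. It includes Guca2a, also on the surface colonocyte list, and Ang4, also on the secreted defence list. Lypd8 is likewise on both the surface colonocyte and the secreted defence list, so these tallies are not independent. Tff3, a trefoil peptide that goblet cells secrete with mucus, had 21.2, 24.4 and 20.8 in WT and 5.39, 1.47 and 8.14 in KO (4.42-fold, adjusted p = 0.0218, not called without WT library 2, KO library 1 or KO library 2). Sytl2, a protein of granule docking, had 117, 234 and 222 in WT and 29.1, 67.5 and 59.0 in KO (3.68-fold, log2 -1.88 ± 0.32, adjusted p = 0.00585). The gel-forming mucin Muc2 had 112, 97.5 and 85.4 in WT and 33.9, 64.6 and 116 in KO. KO library 3 exceeded all WT libraries for Muc2, which was not called (log2 -0.62 ± 0.46, adjusted p = 0.427). Of 28 enteroendocrine genes, 7 were tested, and Cpe, a prohormone-processing enzyme, was the 1 that fell (2.12-fold, log2 -1.10 ± 0.20, adjusted p = 0.00942). No tuft cell gene was called among 9 tested, by limma or edgeR (3 at an unadjusted p under 0.05), and DESeq2, or limma without WT library 1, called 1 higher.

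In the interleukin-1 and interleukin-18 pathway, 5 of 18 tested genes fell and 2 rose (median log2 -0.29). Nlrp6, an inflammasome sensor of the colon epithelium, had 365, 823 and 795 in WT and 113, 81.5 and 174 in KO (5.38-fold, log2 -2.40 ± 0.41, adjusted p = 0.00673). Il18, the cytokine that inflammasomes release, had 153, 104 and 105 in WT and 69.5, 62.4 and 56.0 in KO (1.93-fold, log2 -0.92 ± 0.18, adjusted p = 0.0123). Nlrc4, a further inflammasome component, fell 1.66-fold (log2 -0.73 ± 0.11, adjusted p = 0.00268). These 3 kept their calls without any 1 library, and none overlapped between the genotypes. Il33, an alarmin of the same cytokine family, had 4805, 3859.5 and 4649 in WT and 8653, 7156 and 5805 in KO (1.62-fold, log2 0.69 ± 0.18, adjusted p = 0.044, not called without WT library 2, WT library 3, KO library 1 or KO library 2). The list had 7 falls without WT library 1 and 3 when any other library was left out. It had 2 rises without WT library 1, 1 without KO library 3 and none when another library was left out.

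Detoxification genes beyond the AhR targets moved in both directions. Of 25 tested glutathione S-transferase genes, whose enzymes join glutathione to reactive compounds, 5 rose and 3 fell (median log2 0.17). The rises numbered 2 without WT library 1 or WT library 2, and 1 without KO library 1 or KO library 2. Gstm2 had 246, 255 and 282 in WT and 1094, 818 and 526 in KO (3.12-fold, log2 1.57 ± 0.22, adjusted p = 0.00217). Gstm3, of the same subfamily, went from 19.6, 21.1 and 23.1 to 5.92, 8.81 and 6.11 (3.06-fold, log2 -1.50 ± 0.29, adjusted p = 0.0129, not called without KO library 1). The sulfation genes had 5 falls and 1 rise among 24 tested (median log2 0.03), with 7 falls without WT library 1 and 3 without WT library 2, KO library 1 or KO library 2. Chst11, which sulfates chondroitin, had 510.3, 252 and 274 in WT and 38.8, 51.4 and 26.5 in KO, WT library 1 being the highest (8.88-fold, log2 -3.09 ± 0.33, adjusted p = 0.000383, and -2.77 without it). Papss2, which makes the sulfate donor, fell 2.02-fold and the sulfotransferase Sult1b1 3.79-fold. Papss2 was not called without WT library 2, KO library 1 or KO library 2, and Sult1b1 was not called without WT library 2, WT library 3, KO library 1, KO library 2 or KO library 3. In the cytochrome P450 families 2, 3 and 4, Cyp2d26 was the 1 gene of 14 that fell (47.3, 49.9 and 31.2 in WT, 5.92, 3.67 and 8.14 in KO, 7.23-fold, adjusted p = 0.00744). None of 5 carboxylesterase genes was called by limma or edgeR (4 at an unadjusted p under 0.05). DESeq2 called 2 higher and 1 lower, and limma without WT library 1 called 1 lower. Of 13 efflux transporter genes limma called none and edgeR 2, both higher (4 at an unadjusted p under 0.05), and DESeq2 called 3 higher. Limma called 3 higher and 1 lower without WT library 1, and 1 higher without WT library 3. Of 24 tested NRF2 antioxidant genes, Abhd4, a lipase, was the 1 called (1.26-fold higher, log2 0.33 ± 0.06, adjusted p = 0.0104), and 1 gene was called lower without WT library 1. Nqo1, which fell, was counted on the AhR pathway list and not on this one.

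Lipid mediator and retinoid genes held several called changes. The prostaglandin list had 1 rise and 4 falls among 21 genes tested, and the retinoid list 1 and 3 among 21. On the fatty acid list 2 of 31 rose and 0 fell. Over all genes 3.71% rose and 3.33% fell. With 1 library left out, the prostaglandin falls numbered 1 to 3, the retinoid rises 0 to 4 and the retinoid falls 2 to 3. Pla2g4a, the phospholipase that frees arachidonic acid, had 3120.5, 3423 and 2763 in WT and 1405, 1295 and 1514 in KO (2.21-fold, log2 -1.14 ± 0.09, adjusted p = 3.66e-05). Ptgs2, the inducible cyclooxygenase, had 280.4, 123 and 193 in WT and 86.7, 96.1 and 80.4 in KO (log2 -1.09 ± 0.26, adjusted p = 0.0282, not called without WT library 3, KO library 1, KO library 2 or KO library 3). Ptgs1, the constitutive cyclooxygenase, had 1458, 362 and 397 in WT and 3228, 1583 and 1699 in KO. WT library 1 stood well above the other WT libraries for Ptgs1, which was not called with all libraries (log2 1.79 ± 0.54, adjusted p = 0.0717) and was called without it (log2 2.44, adjusted p = 0.00891). Among 21 retinoid genes, Rdh10, which oxidises retinol, had 12981, 7036 and 7765 in WT and 4781, 4246 and 3187 in KO (2.27-fold, log2 -1.15 ± 0.20, adjusted p = 0.00759). Aldh1a1, which makes retinoic acid, had 5648, 4380.3 and 6297 in WT and 15633, 11667 and 8803 in KO (2.21-fold, log2 1.12 ± 0.22, adjusted p = 0.0142, not called without WT library 2, KO library 1 or KO library 2). The groups did not overlap for these 2 genes. The related Aldh1a3 fell 2.46-fold (log2 -1.16 ± 0.29, adjusted p = 0.0346, not called without KO library 1, KO library 2 or KO library 3). Cd36, a fatty acid transporter, had 0, 3.32 and 4.62 in WT and 37.7, 66.0 and 38.7 in KO (adjusted p = 0.00391).

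Surface, matrix and signalling genes were mixed as well. The basement membrane and integrin list had 3 rises and 1 fall among 28 genes tested, and the claudin list 2 and 1 among 21. The hedgehog and BMP list had 3 and 1 among 22, against 3.71% and 3.33% of all genes. Its rises numbered 1 without WT library 2, WT library 3, KO library 1 or KO library 2. The claudin falls numbered 0 without WT library 2, KO library 1 or KO library 2. Of 14 tested keratins, Krt4 and Krt80 (1.79-fold, adjusted p = 0.00765) rose, and Krt20 and Krt15 (2.07-fold, adjusted p = 0.0146, not called without KO library 1) fell. Col4a5, a basement membrane collagen chain, had 238, 177 and 179 in WT and 959, 682 and 519 in KO (3.64-fold, log2 1.82 ± 0.23, adjusted p = 0.00111). Among the integrins, Itga3, which binds laminin, rose 1.39-fold (not called without WT library 2 or KO library 1) and Itgb8, an activator of TGF-beta, 2.92-fold, whereas the collagen receptor chain Itga2 fell 1.46-fold (log2 -0.55 ± 0.06, adjusted p = 0.000538). Cldn2, a claudin that forms cation pores, had 1399, 775 and 523 in WT and 3736, 2056 and 3427 in KO, with WT library 1 the highest WT library (3.42-fold, log2 1.84 ± 0.33, adjusted p = 0.0076). Bmp4, a growth factor that restrains stem cell expansion, had 280.4, 233 and 188 in WT and 691, 787 and 658 in KO (3.04-fold, log2 1.62 ± 0.16, adjusted p = 0.000219). Ihh, the hedgehog ligand of mature colonocytes, had 31.0, 21.1 and 28.9 in WT and 4.85, 2.94 and 8.14 in KO (5.08-fold, adjusted p = 0.00557). The groups did not overlap for Col4a5, Cldn2, Bmp4 or Ihh.

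None of 22 tested Wnt feedback and target genes passed in limma or edgeR (median log2 0.04, 3 at an unadjusted p under 0.05), nor did any of 19 Notch pathway genes (median -0.06, 5 at an unadjusted p under 0.05). DESeq2 called 1 Wnt gene higher and 0 Notch genes. Limma called 1 Notch gene higher without WT library 1 and 1 lower without KO library 3. Of 21 intestinal stem cell genes, 4 fell and 1 rose (median -0.04), and 1 fell without WT library 2, KO library 1 or KO library 2, and 2 without WT library 3. Lgr5, the R-spondin receptor of crypt base stem cells, had 2530.3, 7489.7 and 6013 in WT and 4308, 5559.9 and 7264 in KO, with overlap (log2 0.20 ± 0.32, adjusted p = 0.728). Ascl2, a transcription factor of these cells, had 859, 1186 and 881 in WT and 546, 561 and 667 in KO (1.65-fold, log2 -0.71 ± 0.18, adjusted p = 0.0386, not called without WT library 2, WT library 3, KO library 1 or KO library 2). Tnfrsf19, a Wnt-induced receptor, had 300.0, 377 and 433 in WT and 1113, 904 and 1088 in KO (2.80-fold, log2 1.49 ± 0.30, adjusted p = 0.0144, not called without KO library 1). Neither gene overlapped between the genotypes. Ascl2 and Tnfrsf19 were counted on the stem cell list and not among the 22 Wnt genes. Bmi1, a Polycomb protein, fell 1.45-fold (log2 -0.54 ± 0.07, adjusted p = 0.000898) and kept its call without any 1 library. Olfm4 was near 0 in all 6 libraries, at most 4.43.

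Small shifts ran through the replication and mitosis genes. All 40 DNA replication genes had a log2 change below 0 (median -0.31) and so had all 40 mitosis genes (median -0.26), also after quantile normalization and by edgeR and DESeq2, against 8040 of the 13925 genes. In each list the 3 KO libraries lay below the 3 WT libraries for 29 of 40 genes, against 18.6% of all genes. By limma 5 replication and 2 mitosis genes fell, by edgeR 3 and 1, and by DESeq2 18 and 4. At an unadjusted p under 0.05 in limma there were 27 and 11. The replication falls numbered 9 without WT library 3, 1 without WT library 1 or KO library 3, and 0 without WT library 2, KO library 1 or KO library 2, and the mitosis falls 1 or 2. Pcna, the replication clamp, had 18606, 16373 and 15879 in WT and 12985, 12502 and 13098 in KO (1.32-fold, log2 -0.40 ± 0.10, adjusted p = 0.0321). Orc1, of the origin recognition complex, fell 1.73-fold (log2 -0.76 ± 0.19, adjusted p = 0.0354). Pcna was not called without WT library 1, WT library 2, KO library 1, KO library 2 or KO library 3, and Orc1 was not called without WT library 1, WT library 2, KO library 1, KO library 2 or KO library 3 (highest adjusted p = 0.108 and 0.121). Mki67, a proliferation marker, had 11217, 12416 and 10923 in WT and 6779.7, 7531 and 12258 in KO, and KO library 3 lay within the WT range (log2 -0.43 ± 0.24, adjusted p = 0.283).

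Interferon-induced genes leaned the other way. Of 43, 38 had a log2 change above 0 (median 0.32), 8 were called higher and none lower. In 19 of the 43 the KO libraries lay above all WT libraries, against 11.9% of all genes. The number of rises was 0 without KO library 1, 1 without KO library 2 or WT library 2, and 10 without KO library 3, and without WT library 1 there were 6 rises and 1 fall. Ifi44 had 2092, 2544 and 2995 in WT and 5201, 4592 and 3943 in KO (1.80-fold, log2 0.85 ± 0.16, adjusted p = 0.0106, highest 0.0552 with 1 library left out). Trim30a, a restrainer of inflammatory signalling, had 882, 1168 and 1282 in WT and 2169, 2273 and 1532 in KO (1.79-fold, log2 0.84 ± 0.21, adjusted p = 0.0362, not called without WT library 1, WT library 2, KO library 1 or KO library 2). Rsad2, the antiviral protein viperin, whose gene lies 9.04 Mb from Ahr, had 507, 476 and 569 in WT and 1016, 925 and 650.4 in KO (1.67-fold, log2 0.72 ± 0.16, adjusted p = 0.0254, highest 0.114 with 1 library left out). The groups did not overlap, and KO library 3 was the lowest KO library for all 3 genes. Ifi44 was not called without KO library 1, and Rsad2 was not called without WT library 2, KO library 1 or KO library 2.

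The stem effect was then tested against the effect of the same genotype after Wnt-3A withdrawal. Of the 13925 genes, 3975 (28.5%) were called in the differentiated libraries, 2005 higher (14.4%) and 1970 lower (14.1%). Of the 981 genes called in the stem condition, 477 (48.6%) were called in the same direction there, 60 in the opposite direction, and 444 were not called there. The difference between the effects (interaction) was called for 1331 genes (9.56%), with the stem change the higher in 534 (3.83%) and the lower in 797 (5.72%), and 214 of these were among the 981. The interaction count was 513 without KO library 1, 556 without KO library 2 and 831 without KO library 3. It was 2245 with same-numbered libraries of a genotype blocked across the conditions. In the interferon list the difference was called for 27 of 43 genes, all with the stem change the higher, and the differentiated libraries had 27 falls and 1 rise (median log2 -0.42). Ifit1bl1, an interferon-induced gene, went from a mean of 234 to 476 in the stem condition (log2 1.01 ± 0.26, not called without WT library 1, WT library 2, WT library 3, KO library 1 or KO library 2) and from 8935 to 3833 in the differentiated condition (log2 -1.30), a difference of 2.31 ± 0.37 (adjusted p = 0.0104). In the replication list it was called for 22 of 40 genes, 21 of them with the stem change the lower, and in the mitosis list for 20 of 40, all with the stem change the lower. These lists had 18 and 28 rises, and 3 and 1 falls, after withdrawal. Rfc4, a clamp loader subunit, went from 1788 to 1364 in the stem condition and from 196 to 274 in the differentiated one (difference -0.87 ± 0.15, adjusted p = 0.0113). Ascl2 went from 975 to 592 and from 71.2 to 151 (difference -1.78 ± 0.25, adjusted p = 0.00896). In the surface colonocyte list, 2 of 25 genes had a called difference, and 20 fell after withdrawal.

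**Figure D3:**
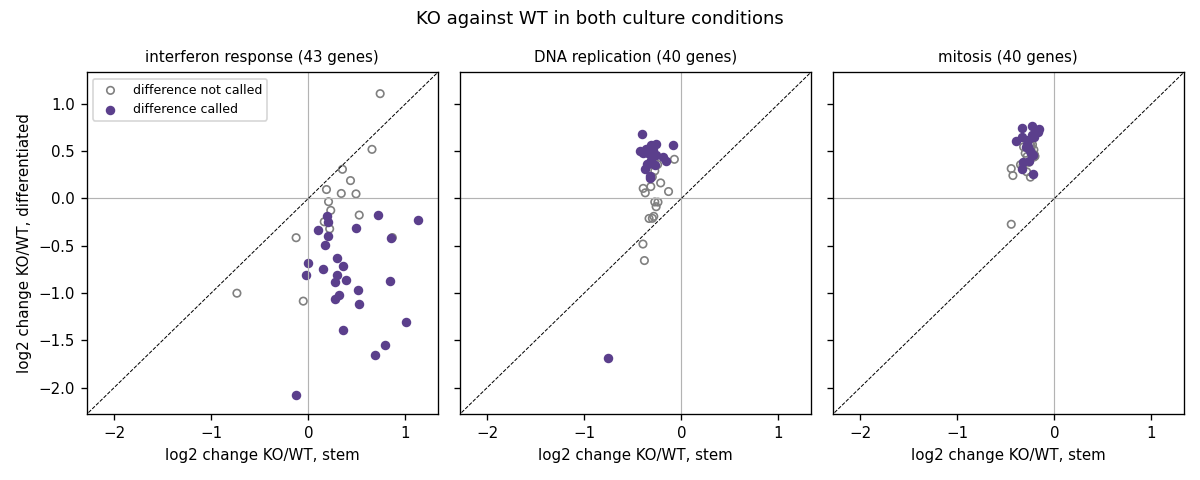
Log2 change KO against WT in the stem condition (horizontal) and after Wnt-3A withdrawal (vertical) for members of the interferon, DNA replication and mitosis lists. Filled points had a called difference between the effects (27 of 43, 22 of 40 and 20 of 40) and the dashed line marks equal changes. Most interferon genes lie below that line and most replication and mitosis genes above it.

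Leaving out WT library 1, over the same 13925 genes, gave 658 genes called higher (4.73%) and 704 lower (5.06%). Of the 981, 796 kept the call in the same direction (429 higher, 367 lower), 88 rises and 97 falls were lost, and none was called in the opposite direction. Among the 229 rises gained was Tnc, the matrix protein tenascin C, with 262, 4.43 and 0 in WT and 24.8, 20.6 and 11.2 in KO (log2 0.75 ± 1.47 with all libraries, 3.02 without WT library 1, adjusted p = 0.0183). Ccdc80, a matrix protein, had 277, 14.4 and 18.5 in WT and 95.3, 52.1 and 43.8 in KO, called without WT library 1 at an adjusted p of 0.0498. Angptl2, a secreted angiopoietin-like protein, had 70.1, 24.4 and 10.4 in WT and 174, 95.4 and 71.2 in KO (adjusted p = 0.00675 without WT library 1). In all 3 genes WT library 1 was the highest WT library. The 337 falls gained included Cd38, an NAD-consuming surface enzyme, with 2375, 5799.8 and 4579 in WT and 974, 1563 and 2281 in KO (log2 -1.39 ± 0.41, adjusted p = 0.0636, and -1.77 without WT library 1, adjusted p = 0.0222). Duoxa2, which matures the hydrogen peroxide-producing enzyme DUOX2, had 176, 829 and 507 in WT and 165, 211 and 222 in KO (adjusted p = 0.208, and 0.025 without WT library 1). Both had their lowest WT value in library 1. Among the calls lost were the rise of Bst1, a relative of Cd38 (6.52, 15.5 and 49.6 in WT, 76.0, 85.9 and 85.5 in KO, adjusted p = 0.0371, and 0.0522 without WT library 1), and the fall of Pmp22, a membrane protein (924, 516 and 485 in WT, 278, 330.2 and 213 in KO, adjusted p = 0.0295, and 0.0519).

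**Figure D4:**
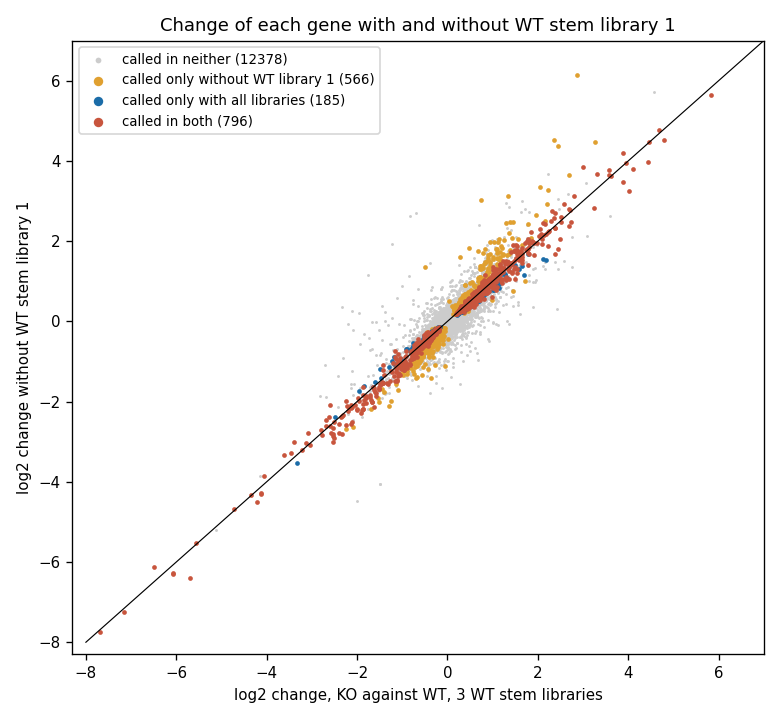
Log2 change of each of the 13925 genes with all 3 WT stem libraries (horizontal) and without WT library 1 (vertical), coloured by the fits in which the gene was called. The 796 genes called in both lie near the diagonal line of equal change.

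Several metabolic lists held no called gene in the stem condition. None of 27 cholesterol genes passed in limma or edgeR, although 24 lay below 0 (median log2 -0.23, 5 at an unadjusted p under 0.05). For 19 of the 27 the KO libraries lay below all WT libraries, against 18.6% of all genes. After Wnt-3A withdrawal, limma called 18 lower and 1 higher, against 14.1% and 14.4% of all genes. In the stem condition DESeq2 called 1 lower, and limma without WT library 1 called 1 higher. None of 29 glycolysis and hypoxia genes passed either, with a median of 0.06 that turned to -0.27 without WT library 1 (1 at an unadjusted p under 0.05). The same held for 29 amino acid and unfolded protein stress genes (median -0.07, and -0.22 without WT library 1, 2 at an unadjusted p under 0.05), and DESeq2 called 0 genes in either list. Among 28 antigen processing genes, the peptide transporter genes Tap1 and Tap2 rose (1.27-fold and 1.44-fold, adjusted p = 0.0179 and 0.0132). Tap1 was not called without WT library 2, KO library 1 or KO library 2, and Tap2 was not called without KO library 2. Members of this list called lower numbered 1 without WT library 1 and 2 without WT library 3. Pdgfrb, a receptor of fibroblasts and pericytes and the 1 called gene of the fibroblast list, fell from 71.7, 94.2 and 55.4 to 14.0, 19.8 and 14.2 (4.60-fold, adjusted p = 0.00398), and WT library 1 lay between the other WT libraries.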

How the data were processed

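RNA-seq of total RNA from 12 libraries (4 groups of 3) was analysed, and the groups came from the sample titles. The authors deposited a table of gene counts scaled by size factors, treated here as a signal. Per the labels, GRCm38, Bowtie2 (no version), RSEM 1.2.11 and DESeq2 1.18.1 were used. Annotation, filters and strand use are not given in the sources used here, so overlapping genes on opposite strands cannot be told apart. Dividing each deposited column by its smallest step gave whole reads for 100% of values (tolerance 0.05), and no column was without a sample. Each stem library held at least 33062589 reads, and floors of 3 reads per library cover counting error only. Symbols and exon lengths came from GENCODE vM21, which matched 99.3% of identifiers.

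Values were transformed as log2(value + 1), so changes of low genes are understated, and fitted with limma 3.58.1 (R 4.3.3, mean-variance trend, two-sided) with 4 group means over all 12 libraries. Genes with at least 10 in at least 3 stem libraries were tested, and a call needed an adjusted p (Benjamini-Hochberg) under 0.05. The interaction contrast was the KO effect in the stem condition minus that after withdrawal. The fit was tested on simulated data first. Fits that left out libraries kept the same genes. Adjusted p-values in the text come from limma unless another tool is named. Alternatives were pseudocounts of 0.5 and 5, no filter, a mean of at least 50, quantile normalization, recomputed size factors, robust estimation of the spread, the 6 stem libraries alone, replicate blocks, a 2-fold limit, leaving out each library, and edgeR 4.0.16 and DESeq2 1.42.0 on recovered reads. Leaving out WT library 1 with KO library 3 was chosen after seeing the data.

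The members, the 51 gene lists and the naming rule were chosen with earlier results of these data known. Some genes are on several lists and were counted in each. Named were the 12 largest called rises and falls with no overlap, a mean of at least 50 in a group and the same call without WT library 1; the 6 largest each way gained or lost without it; the 6 most abundant each way per kilobase; up to 4 called members per list, or the 2 most abundant; the 5 largest interactions each way; and a fixed panel. Predicted genes and pseudogenes were not named. Some genes that the rule names are not reported here.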

Additional observations from a re-analysis of the deposited data

Results flagged for a closer look

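The 9 genes below were picked out because the KO effect in the stem condition differed from that after Wnt-3A withdrawal by the limma interaction test (adjusted over 13925 genes), and they are among the largest such differences each way under the naming rule. Levels are means over 3 libraries, and the difference is the stem log2 change minus the differentiated one. The causes were not tested.

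In 4 genes the stem change was the higher. Acacb, which makes malonyl-CoA at the mitochondrial surface, went from 278 to 549 in the stem condition and from 1085 to 374 in the differentiated condition, a difference of 2.72 ± 0.51 (adjusted p = 0.0146), and its stem change alone was not called (adjusted p = 0.0776). Il16, a secreted cytokine, went from 50.4 to 232 and from 7.42 to 5.30 (2.71 ± 0.55, adjusted p = 0.0177). Chit1 went from 0.369 to 72.8 and from 0 to 8.88 (2.55 ± 0.58, adjusted p = 0.0245). With 1 WT read in the stem condition, the size of this fitted difference depends on the pseudocount. Defb1 went from 13.5 to 205 and from 6.69 to 19.7 (2.43 ± 0.63, adjusted p = 0.0374). All but Acacb were at low levels in both genotypes after withdrawal.

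In the other 5 the stem change was the lower. Mcam, an adhesion molecule, had means of 181 in WT and 158 in KO in the stem condition and 146 and 661 after withdrawal (-2.26 ± 0.39, adjusted p = 0.0118). Zbtb10, a zinc finger protein, had 134 and 39.6, against 186 and 272 after withdrawal (-2.21 ± 0.33, adjusted p = 0.00971). Chst11 had 345 and 38.9, against 321 and 155 (-2.07 ± 0.47, adjusted p = 0.024). Nes, the filament protein nestin, had 292 and 474, against 302 and 2094 (-2.02 ± 0.31, adjusted p = 0.00971), and its stem change alone was not called. Ugt1a7c had 3123 and 188, against 3948 and 958 (-2.01 ± 0.49, adjusted p = 0.0302).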

How the results depend on the processing

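Of 206 named genes, 150 were called, 66 of them under every alternative other than the 2-fold limit, which was not compared for named genes. Of the 150, 122 entered the fit with a mean of at least 50, and 79 kept the call with the 6 stem libraries alone. No result reversed. The stem count of 981 (517 higher, 464 lower) stayed within 1.5 times under both other pseudocounts, no filter, a mean of at least 50, quantile normalization, recomputed size factors, robust estimation of the spread and edgeR (969). It was 373 (210 and 163) with the 6 stem libraries alone, 1956 (847 and 1109, 43.3% higher) by DESeq2, and 320 (182 and 138) with a 2-fold limit. Leaving out 1 library gave 375 to 1362 genes (205 to 658 higher, 170 to 704 lower), and leaving out WT library 1 with KO library 3 gave 1488 (737 and 751), with 760 of the 981 among them. The interaction count of 1331 was 792 with no filter, 2424 by DESeq2, 253 with a 2-fold limit and 513 to 1613 without 1 library. Replicate numbers of the KO and WT stem libraries did not pair the samples (correlations of deviations 0.174, 0.064 and 0.004). Between stem and differentiated libraries of the same number they were 0.355, 0.219 and 0.304 in KO and 0.127, 0.09 and 0.163 in WT, each library correlating best with its own number, which is a hint of pairing from the data that the labels do not state. The replicate block gave 1480 stem calls (730 lower) and 2183 interaction calls, and the replicate block within genotype 2245 interaction calls. The cause of these shifts was not tested, except that fewer samples entered the 6-library and leave-1-out fits. With 3 libraries a group, the exact test of Ahr cannot go below 0.1. Where a group had 1 to 9 reads in the stem condition, the report gives levels without a fold, and for a group at 0 reads a bound.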
